A study of Homo sapiens with 4 samples.

Results

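The complement components and regulators followed here are 9 genes: C1R, C1S, C3, CFB, CFI, CD46, CD55, CD59 and SERPING1. They were listed by name and found on the arrays through the RefSeq transcript that each probe set carries. All 9 were found, with 1 probe set of 3 probes each, among 17185 genes that could be named. They were measured in KYSE410, an established human cell line from a squamous cell carcinoma of the oesophagus, grown in serum-containing medium. The series was set up to look for mRNA that reacts to inflammation, and the question here is what the complement genes showed. The cells received PBS (the solvent control), TNFα, IL1β or LPS for 24 h. TNFα and IL1β are inflammatory cytokines, and LPS (lipopolysaccharide) comes from the outer membrane of Gram-negative bacteria. RNA of each condition was hybridised to 1 single-colour NimbleGen array, so there are 4 arrays and no replicates. Differences therefore carry no error and no p-value, and their precision is limited by the number of arrays. The dose of each stimulus is not given in the sources used here.

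Complement is a cascade of plasma proteases and binding proteins that marks surfaces for uptake and lysis. C1R and C1S are the proteases of the first component, and SERPING1 (C1 inhibitor) inactivates them. The pathways meet at C3, which is cleaved by convertases. CFB supplies the protease of the alternative pathway convertase. Host cells protect themselves with the membrane proteins CD55, which speeds the decay of convertases, CD46, a cofactor for cleavage by the protease factor I (the product of CFI), and CD59, which blocks assembly of the membrane attack complex. The liver makes most plasma complement, and epithelial cells can also make components and carry the membrane regulators.

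A gene is called higher or lower when it passed a size rule, an at least 2-fold gap between 2 arrays whose brighter value was not under a level floor. The floor was the median over named genes of the mean log2 intensity, 8.02 (260.5 on the linear scale). A control set of 5000 random-sequence probes read from 54.1 to 56.4, and values under 2 times that control on the same array are called near background. As a measure of probe error, the log2 differences of 2 probe sets for 1 gene disagreed with an SD from 0.46 (TNFα against IL1β) to 0.74 (LPS against IL1β) over 622 genes. Both sets of these 622 genes had a mean level at the floor, so the SD was not measured for dimmer sets. Gaps smaller than that SD for the same pair of arrays are not ordered below. An order that rests on a gap just over 1 SD is weak. The SD says nothing of the spread between cultures.

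The LPS array stood apart: 415 named genes were at least 2-fold brighter on it than on each other array, against 36 to 108 for the others. Squamous epithelial markers, 12 genes, were at levels that fit the labelled cell type, with 11 at the floor on all 4 arrays. Their summed intensities ran from 163205 (PBS) to 235040 (LPS). Not all were steady. Against PBS, CDH1 was lower with each stimulus, KRT13 was higher with TNFα, and KRT14, KRT17 and TP63 were higher with LPS. Of 10 hepatocyte markers at most 2 reached the floor on any array, their sums ran from 1098 to 1339, and ALB, APOB, FGB, FGG and AHSG were near background on all 4 arrays. Leukocyte markers summed to 10325, 13188, 15730 and 2898 on the PBS, TNFα, IL1β and LPS arrays over 13 genes, and CD3E and MS4A1 were near background throughout. Fibroblast markers, 8 genes, summed to 976 with LPS and between 1611 and 1711 elsewhere, with LUM and THY1 near background on all arrays. Cardiac muscle markers, 6 genes, summed to 13781 with LPS and to between 37686 and 57877 on the other arrays, although these genes are not typical of an epithelial line. Fewer cells of a type and less RNA per cell cannot be told apart in bulk RNA, and the labels name a single cell line. What gave these marker signals, and why they differed between the arrays, was not tested.

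Of the 9 genes 6 differed at least 2-fold between their brightest and dimmest arrays with the brightest at the floor, namely C1R, C3, CFB, CD46, CD55 and SERPING1. The same held for 31.7% of the 10271 named genes that reached the floor on any array. Without the LPS array there were 5 such genes (CD46 dropped out), and without the PBS array there were 4 (C3, CFB, CD46 and CD55). Both reduced counts were added after the data had been seen. CFI and CD59 never reached the floor. With PBS only CFB, CD46, CD55 and SERPING1 did. C1R, C1S and C3 passed only through arrays on which they were brighter, so their passing is itself tied to a difference.

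**Figure D1:**
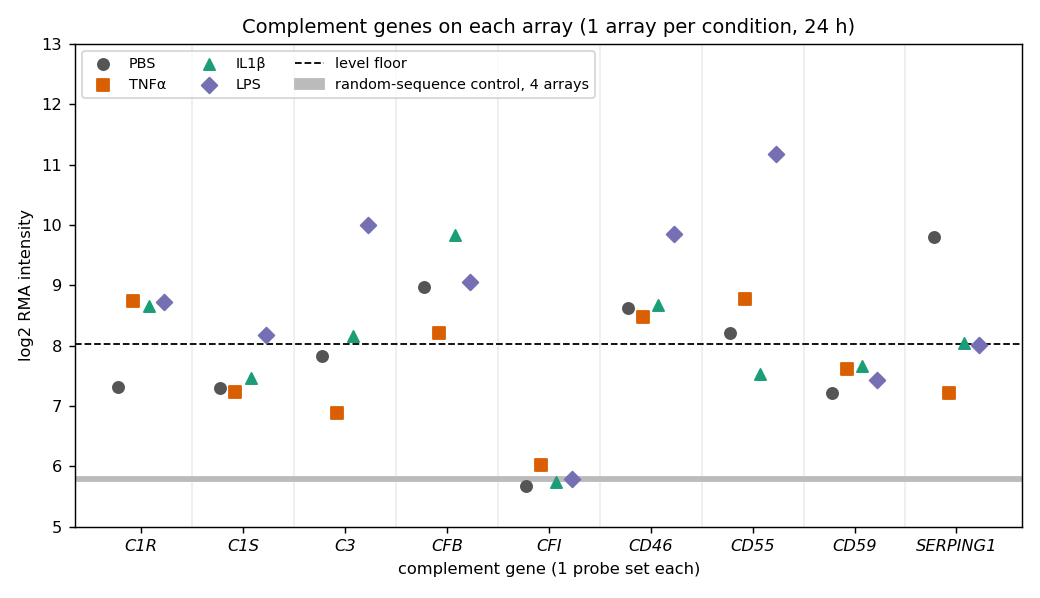
Log2 RMA intensity (vertical axis) of the 9 complement genes (horizontal axis) on the PBS, TNFα, IL1β and LPS arrays, 1 symbol per array. The dashed line is the level floor (8.02) and the grey band the random-sequence control. CD55, C3 and CD46 are brightest with LPS, SERPING1 is brightest with PBS, CFB is brightest with IL1β, and CFI lies at the control.

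The bases before the transcription starts of these genes are shown first, as stretches in which transcription factors can bind. A link between these bases and the patterns over the 4 arrays was not tested. RefSeq promoter windows (GRCh38.p14) were at hand for 6 of the 9 genes, in 11 windows, and not for C1S, C3 and SERPING1. The 250 bases before the start were searched on both strands for a STAT form (TTCNNNGAA) and a C/EBP form (TTGCNNAA), whose letters do not overlap in any window shown, and capitals mark the matches. A strict and a wide NF-κB form and an interferon-response form were searched as well, and their letters are not printed here. The strict NF-κB form, present in 1.73% of all promoters, had no match in the 11 windows. The interferon-response form, present in 3.02%, matched in CFB. The wide NF-κB form, present in 54.4%, matched in windows of CFB, C1R, CD46, CD55 and CD59. Shown are CFB, both starts of C1R and CD55, as examples of these windows.

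CFB, chr6:31945845-31946094, plus strand: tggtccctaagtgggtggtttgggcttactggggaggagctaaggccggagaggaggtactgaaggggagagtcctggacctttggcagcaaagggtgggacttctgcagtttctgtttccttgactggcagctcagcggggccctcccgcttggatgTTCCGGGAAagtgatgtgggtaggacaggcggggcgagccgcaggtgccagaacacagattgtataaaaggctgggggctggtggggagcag

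C1R first window, chr12:7092446-7092695, minus strand: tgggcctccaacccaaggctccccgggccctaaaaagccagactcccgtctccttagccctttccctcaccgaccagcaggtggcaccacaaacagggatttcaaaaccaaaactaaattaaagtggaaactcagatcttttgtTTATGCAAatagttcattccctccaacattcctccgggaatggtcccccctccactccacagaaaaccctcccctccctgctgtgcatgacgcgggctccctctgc

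C1R second window, chr12:7091894-7092143, minus strand: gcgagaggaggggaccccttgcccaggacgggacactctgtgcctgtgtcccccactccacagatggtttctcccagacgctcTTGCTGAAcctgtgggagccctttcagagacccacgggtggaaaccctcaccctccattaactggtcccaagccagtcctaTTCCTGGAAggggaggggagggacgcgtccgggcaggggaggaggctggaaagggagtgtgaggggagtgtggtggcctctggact

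CD55, chr1:207321428-207321677, plus strand: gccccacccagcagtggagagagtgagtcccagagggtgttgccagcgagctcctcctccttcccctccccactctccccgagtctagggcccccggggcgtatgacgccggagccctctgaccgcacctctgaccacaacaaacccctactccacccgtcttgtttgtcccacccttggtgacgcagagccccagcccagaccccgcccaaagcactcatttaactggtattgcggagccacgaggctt

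The CFB window held the STAT form once, from 92 to 84 bases before the start, and not the C/EBP form. Among 35116 RefSeq promoter windows, 6.57% held the STAT form and 9.05% the C/EBP form. C1R had a C/EBP form in both windows, at 106 to 99 and at 167 to 160 bases before the respective start, and a STAT form in the second at 86 to 78. CD55 held neither, so its window is in lower case throughout. Of the genes not printed, CD59 had a STAT form in its overlapping first and second windows and 2 C/EBP forms in the third, and CD46 and CFI had neither form. A match is a description of letters and not a site, and no match says only that these letters are not in this window.

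The first group are the initiating proteases and their inhibitor. C1R, the protease that activates C1S, had an intensity of 159 with PBS, against 427 with TNFα, 405 with IL1β and 422 with LPS. The PBS array was lowest, and the 3 stimulated arrays differed from each other by at most 0.08 log2, less than the probe error. C1R was 2.69-fold higher with TNFα, 2.55-fold with IL1β and 2.66-fold with LPS than with PBS, at log2 differences of 1.43, 1.35 and 1.41. All 3 values share the single PBS array, which was 2.93 times its random control for this gene. Of the 10271 genes 0.808% were at least 2-fold higher in all 3 comparisons. With a floor at the 75th percentile of mean level C1R fell under the floor and was not called in any of these 3 comparisons.

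C1S, the protease that cleaves C4 and C2, lies next to C1R in the annotation with no protein-coding gene between them. Its intensities were 157, 150.3, 178 and 291 on the PBS, TNFα, IL1β and LPS arrays. Only the LPS array reached the floor, and at 1.85-fold above PBS (log2 difference 0.89) it missed the 2-fold rule. The gap of 0.71 between LPS and IL1β was smaller than the probe error of 0.74, so no order is given among the arrays next to each other. C1S thus did not show the C1R pattern with the cytokines, at log2 differences of -0.06 with TNFα and 0.18 with IL1β, although the difference between the 2 genes was not tested. C1RL, a C1R-like protease on the other side of C1R, was at the floor on every array with intensities of 609 with PBS, against 727 with TNFα, 709 with IL1β and 815 with LPS, none 2-fold apart.

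SERPING1, the serpin that inactivates C1R and C1S, went the other way. Its intensity was 896, 148, 265 and 258 on the PBS, TNFα, IL1β and LPS arrays. PBS was far above the 3 stimulated arrays, and TNFα was the lowest, below LPS by 0.80 log2. The TNFα and LPS values were both below the floor, so their order is weak. SERPING1 was 6.05-fold lower with TNFα than with PBS, 3.38-fold lower with IL1β and 3.48-fold lower with LPS, at log2 differences of -2.60, -1.76 and -1.80. With TNFα only 15 of 9419 genes (0.159%) had a difference as low or lower. The 3 comparisons share the PBS array, and between stimuli SERPING1 was never 2-fold different. At least 2-fold lower in all 3 comparisons were 1.05% of the 10271 genes. Markers of endothelial cells, which also make C1 inhibitor, had their highest sum with PBS, at 975 with PBS, against 528 with TNFα, 590 with IL1β and 548 with LPS over 6 genes. PECAM1 and CDH5 were brightest with PBS, while VWF, CLDN5, KDR and TEK were not, and KDR and TEK were near background on all 4 arrays. CDH5 read 234, 47.1, 58.1 and 122 on the PBS, TNFα, IL1β and LPS arrays. PECAM1, the only one to reach the floor on any array, read 419 with PBS, 127 with TNFα, 274 with IL1β and, lowest, 74.1 with LPS. The part of these markers in the SERPING1 difference was not tested.

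The second group are the parts of the C3 convertase. C3, the protein on which all pathways meet, had an intensity of 227, 118, 287 and 1019 on the PBS, TNFα, IL1β and LPS arrays. LPS was highest, IL1β and PBS were not apart beyond the probe error, and TNFα was lowest, at 2.11 times its random control. C3 was 4.49-fold higher with LPS than with PBS (log2 difference 2.17), and 1.42% of 9675 genes had a difference as high. The TNFα value was 0.95 log2 below PBS and below the floor on both arrays, so it was not called. Between stimuli C3 was 8.66-fold higher with LPS than with TNFα, where 17 of 9655 genes (0.176%) had a difference as large. It was 3.55-fold higher with LPS than with IL1β, and 2.44-fold lower with TNFα than with IL1β. These 3 values do not use the PBS array.

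CFB, the convertase protease, reached the floor on all 4 arrays, with intensities of 502 with PBS, against 295 with TNFα, 918 with IL1β and 530.4 with LPS. IL1β was highest and TNFα lowest, while LPS and PBS differed by 0.08 log2, far inside the probe error. Against PBS neither cytokine reached 2-fold, with log2 differences of -0.77 for TNFα and 0.87 for IL1β. Compared directly, CFB was 3.11-fold lower with TNFα than with IL1β (log2 difference -1.64), the 41st lowest of 9270 genes (0.442%). C2, the classical pathway counterpart of CFB, which has 1 protein-coding gene between it and CFB in the annotation, read 333, 460.2, 323 and 302 on the PBS, TNFα, IL1β and LPS arrays. C2 was thus never 2-fold different, and its gap between TNFα and PBS was inside the probe error. Its gap between TNFα and IL1β was a little over the probe error, with TNFα higher, the reverse of CFB.

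The membrane regulators made up the third group. CD55, decay accelerating factor, had an intensity of 297 with PBS, against 436 with TNFα, 186 with IL1β and 2324 with LPS. LPS was highest by 2.41 log2 over the next array, and each neighbouring pair in the order LPS, TNFα, PBS, IL1β was apart by more than the probe error, TNFα and PBS barely so (0.553 against 0.548). CD55 was 7.82-fold higher with LPS than with PBS (log2 difference 2.97), the 45th highest of 9675 genes (0.465%). It was 5.33-fold higher with LPS than with TNFα and 12.5-fold higher than with IL1β. For the last of these only 9 of 9707 genes (0.0927%) had a difference as large. With the cytokines CD55 was not 2-fold from PBS, at log2 differences of 0.55 with TNFα and -0.68 with IL1β, yet the TNFα array was 2.35-fold above the IL1β array. The order of the cytokines was the reverse of that for C3 and CFB.

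CD46, membrane cofactor protein, had an intensity of 397, 356, 410.3 and 921 on the PBS, TNFα, IL1β and LPS arrays. The PBS, TNFα and IL1β arrays lay within 0.20 log2 of each other, inside the probe error, and LPS was above them. CD46 was 2.32-fold higher with LPS than with PBS, 2.58-fold higher than with TNFα and 2.24-fold higher than with IL1β. A difference as high as that from PBS was seen for 5.83% of 9675 genes, so in size it lies well inside what the LPS array showed elsewhere.

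CD59, the inhibitor of the membrane attack complex, was below the floor on every array, with intensities of 149 with PBS, against 195 with TNFα, 203 with IL1β and 173 with LPS. These are 2.76 to 3.61 times the random control, and no neighbouring arrays were apart beyond the probe error. CFI, the protease that uses CD46 as a cofactor, was near background on all 4 arrays, with intensities of 51.1, 65.4, 53.6 and 55.2 on the PBS, TNFα, IL1β and LPS arrays, or 0.944 to 1.17 times the control. No fold is given for CFI. For neither gene can a level below the floor be taken as absence of the messenger RNA.

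**Figure D2:**
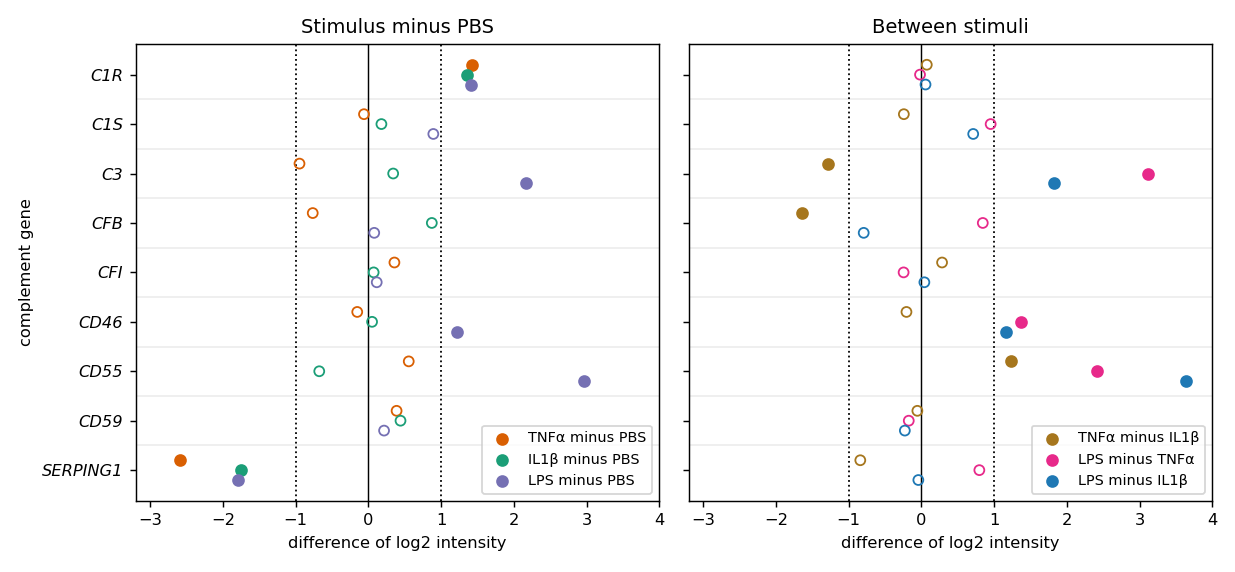
Differences of log2 intensity (horizontal axis) for the 9 complement genes (vertical axis), stimulus minus PBS on the left and between stimuli on the right. Filled symbols passed the 2-fold rule with the brighter value at the floor, open ones did not, and dotted lines mark 2-fold. C1R lies at 1.35 to 1.43 and SERPING1 at -2.60 to -1.76 with every stimulus, while C3, CD46 and CD55 are filled with LPS alone on the left.

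Counted by comparison, TNFα had 1 of 9 complement genes higher than PBS (C1R) and 1 lower (SERPING1), with 5 of the 9 at the floor on either array. Among all genes at the floor 3.37% were higher and 3.4% lower. IL1β gave the same count and the same 2 genes, with 6 of 9 at the floor, beside 3.13% higher and 3.57% lower of all genes. LPS had 4 of 9 higher (C1R, C3, CD46 and CD55) and 1 lower (SERPING1), with 7 at the floor, beside 8.83% and 7.42%. The median log2 difference over the 9 genes was -0.06 with TNFα, 0.18 with IL1β and 0.89 with LPS, beside -0.03, -0.03 and 0.02 over all named genes. Over only those of the 9 at the floor it was -0.15, 0.19 and 1.21, beside -0.07, -0.05 and 0.05 over all genes at the floor. With LPS genes of the list were called in both directions, as with TNFα and IL1β.

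Between stimuli, the shares given are again of all genes at the floor on either array. Of the 9 genes, 6 were at the floor for TNFα against IL1β, 6 for LPS against TNFα and 7 for LPS against IL1β. TNFα and IL1β differed in 3 of the 9, with CD55 higher and C3 and CFB lower with TNFα, beside 1.87% of all genes higher and 1.74% lower. With a floor at the 75th percentile only CFB of these 3 is called. LPS was higher than TNFα for C3, CD46 and CD55, 3 of 9, beside 9.93% of all genes, and none of the 9 was lower, beside 7.09%. LPS was higher than IL1β for the same 3 genes, beside 10.5%, and again none was lower, beside 7.45%. The median over the 9 was -0.20 for TNFα minus IL1β, 0.85 for LPS minus TNFα and 0.06 for LPS minus IL1β. Over all named genes it was 0.00, 0.05 and 0.04. Over only those of the 9 at the floor it was -0.52, 1.16 and 0.71, beside -0.00, 0.11 and 0.10 over all genes at the floor. C3, CD46 and CD55 were thus at least 2-fold higher with LPS than on each other array, which held for 4.04% of the 10271 genes. For each gene the 3 comparisons share the single LPS array. As given above, the LPS array also had lower sums of leukocyte, fibroblast and cardiac markers, and the part of that in these differences was not tested.

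**Figure D3:**
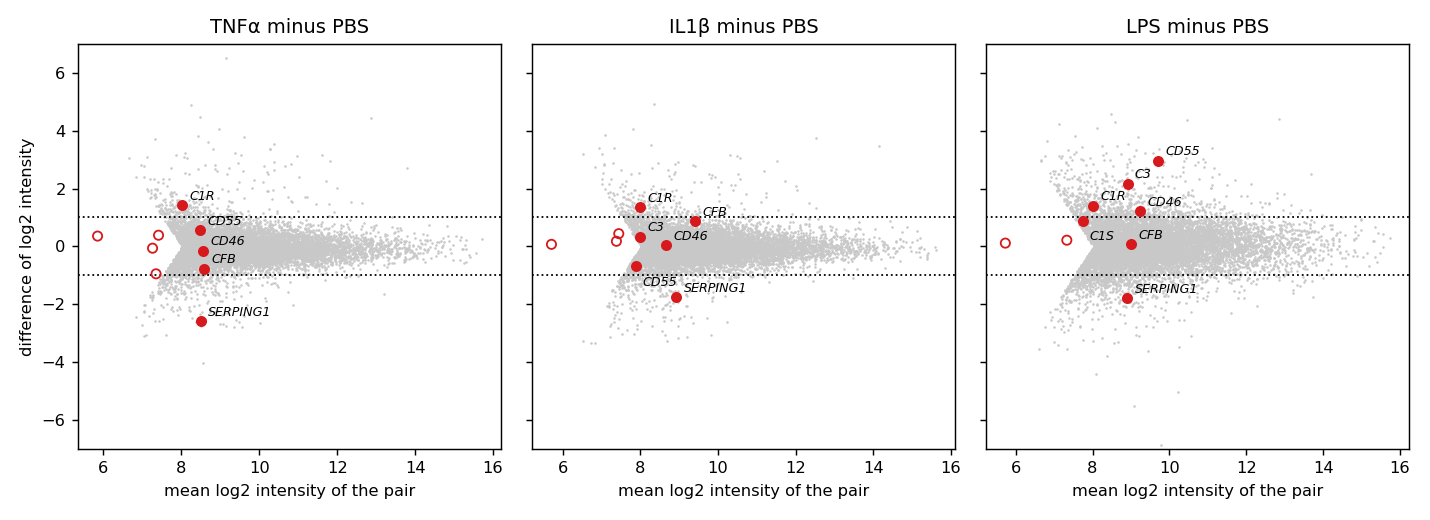
Difference of log2 intensity from PBS (vertical axis) against the mean log2 intensity of the pair (horizontal axis) for TNFα, IL1β and LPS. Grey points are named genes at the floor on either array, red points the complement genes (filled and named at the floor, open below it), and dotted lines mark 2-fold. SERPING1 lies at the lower edge with TNFα, and CD55 lies in the upper part with LPS, where the cloud is wider.

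The other complement genes were taken from a list of 51, of which 48 were measured (C4A, CPN2 and CR1 were not matched). Of these 48, 14 reached the floor on any array and 17 were near background on all 4, among them C5, C6, C8B, MBL2 and C3AR1, examples picked after their values were seen. With TNFα 2 were higher than PBS and 1 lower, with IL1β 2 higher and 3 lower, and with LPS 4 higher and 1 lower. In each comparison 13 of the 48 were at the floor on either array, and the shares of all genes given above apply. The medians over the 48, most of them below the floor, were 0.18, 0.18 and -0.12. Over the 13 at the floor they were 0.26, 0.22 and 0.44, beside -0.07, -0.05 and 0.05 over all genes at the floor. Some of the 13 passed only through an array on which they were brighter. C1RL, C2 and CR2 are named for their place beside the genes above.

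C4BPB, the β chain of C4b-binding protein, a fluid-phase inhibitor of the classical convertase, was at least 8.48-fold higher with LPS than with PBS. Its intensity was 917 with LPS against 103 with PBS, 121 with TNFα and 135 with IL1β. A second probe set of C4BPB read 1342 with LPS and 108, 125 and 67.4 on the PBS, TNFα and IL1β arrays, at least 12.4-fold higher with LPS than with PBS. Both sets put LPS alone above the floor. The α chain, C4BPA, had its brightest array with PBS at 273, against 143 with TNFα, 105 with IL1β and 155 with LPS. It was at least 2.43-fold lower with IL1β than with PBS.

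C4BPB, CD55 and CD46 belong to the same cluster of complement regulators on chromosome 1. In the annotation C4BPA and CR2 flank CD55 directly, C4BPB follows with only C4BPA between it and CD55 (1 gene), and CD46 has 3 protein-coding genes between it and CD55. CR2, the complement receptor of B cells, stayed below the floor, reading 164 with PBS, against 184 with TNFα, 219.8 with IL1β and 175 with LPS. Of the 5 measured genes of this cluster named here, CD55, CD46 and C4BPB were brightest with LPS and C4BPA and CR2 were not.

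C4B, a C4 component that C1S cleaves, had the C1R pattern. Its intensity was 125, 436, 407 and 388 on the PBS, TNFα, IL1β and LPS arrays, with folds of 3.50, 3.27 and 3.12 against PBS. The PBS value was below the floor, so C4B passed only through arrays on which it was brighter. All 3 folds share the single PBS array. Of the 10271 genes that reached the floor on any array, 0.808% were at least 2-fold higher in all 3 comparisons. C4B and C4A are near-identical copies, so the probes may not tell them apart. CFP, properdin, which stabilises the alternative convertase, read 304 with PBS, against 277 with TNFα, 133 with IL1β and 862 with LPS. It was 2.84-fold higher with LPS and 2.28-fold lower with IL1β than with PBS. In its order of IL1β lowest and LPS highest it resembled CD55 rather than CFB.

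The remaining called genes are known from leukocytes. FCN1, the lectin M-ficolin of monocytes, read 118, 1439, 455 and 439.6 on the PBS, TNFα, IL1β and LPS arrays. ITGB2, the β chain of complement receptors 3 and 4, read 894 with PBS, against 369 with TNFα, 164 with IL1β and 269 with LPS, 2.43-fold, 5.46-fold and 3.32-fold lower than PBS. Properdin is also made by leukocytes. The leukocyte marker sum (10325, 13188, 15730 and 2898 in the order PBS, TNFα, IL1β and LPS) was lowest with LPS, where CFP was highest. Most of that sum was LYZ, which read 6917, 5600.3, 10390 and 209 in the same order, and ITGB2 is itself 1 of the 13 markers. Other markers went other ways. AIF1, in its brighter probe set, read 185 with PBS and 1386 with LPS, its brightest array. PTPRC read 91.5 with PBS and 1295 with TNFα, and FCGR3A read 212 and 2906, both brightest with TNFα as FCN1 was. Of the other markers at the floor on any array, LYZ, TYROBP and CSF1R were brightest with IL1β, and CD68 and ITGB2 with PBS. The part of these markers in the values of FCN1, ITGB2 and CFP was not tested.

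**Figure D4:**
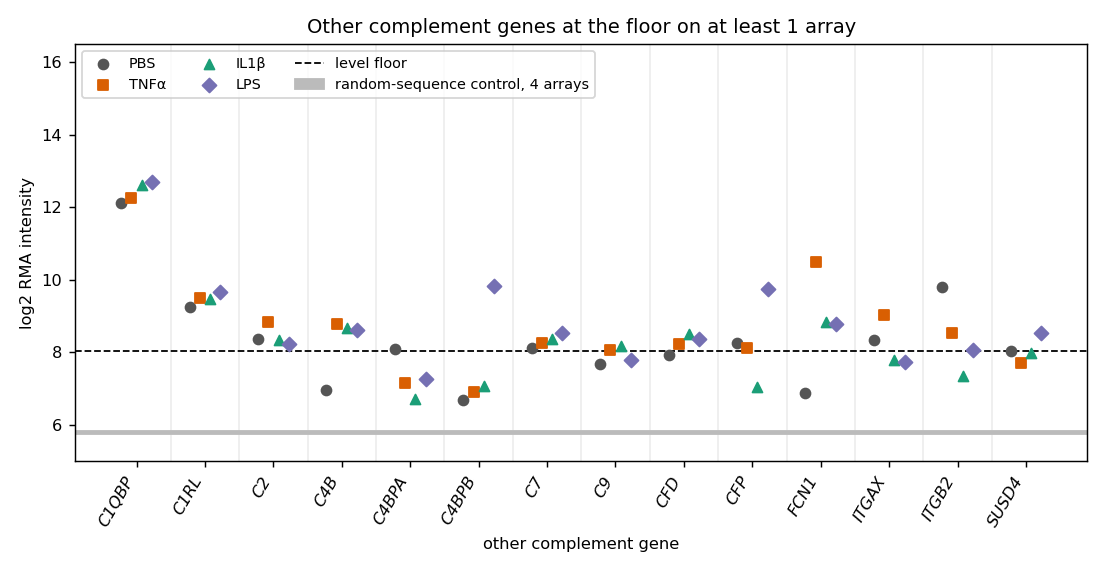
Log2 RMA intensity (vertical axis) of the 14 other complement genes (horizontal axis) that reached the floor on any array, 1 symbol per array. C4BPB and CFP are brightest with LPS, FCN1 is brightest with TNFα, C4B is dimmest with PBS, and ITGB2 is brightest with PBS.

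Finally, for each complement gene called against PBS, the named genes with the closest profile over the 4 arrays were taken from 8593 genes with a mean level at the floor. Likeness was the Euclidean distance between log2 profiles centred on their means, so 0 is an identical profile. The distance is not scaled for the size of the differences, so flatter profiles lie closer to more genes. For C1R these were SRGN (0.07), IRAK1 (0.11) and TNFAIP8 (0.14). IRAK1, a kinase of IL1 and toll-like receptor signalling, read 3089, 8941, 8685 and 9025 on the PBS, TNFα, IL1β and LPS arrays. For CD46 they were UGP2 (0.04), DDT (0.08) and ZNHIT3 (0.08). Within a distance of 1 lay 1072 genes for C1R and 3351 for CD46, against 44 for SERPING1, 31 for C3 and 10 for CD55.

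The closest profiles to CD55, whose differences were larger, were ID1 (0.58), CPS1 (0.64) and TNFAIP2 (0.68). TNFAIP2, a TNF-induced gene, read 630 with PBS, against 683 with TNFα, 562 with IL1β and 4719 with LPS. Closest to C3 were DDIT3 (0.37), ALDH3B1 (0.54) and NIPA1 (0.56). DDIT3, a transcription factor of the stress response, read 481, 265, 461 and 2065 on the PBS, TNFα, IL1β and LPS arrays. Closest to SERPING1 were TNPO2 (0.31), PIAS3 (0.38) and TSPAN15 (0.40), all brightest with PBS. With 4 arrays such a likeness describes these arrays only.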

How the data were processed

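RNA from KYSE410 cells under 4 conditions was copied to cDNA and labelled with Cy3, per the labels' protocols. The authors deposited RMA intensity on a linear scale, 1 value per probe set, per the file headers. RMA is robust multi-array averaging, and neither its software nor its version is given in the sources used here. In addition, a series table deposited by the authors held the same intensity values for all 45033 probe sets. RMA usually equalises arrays, so changes shared by most genes are not seen.

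Accessions without versions were matched to RefSeq (GRCh38.p14, names only). Of the probe sets 18866 (41.9%) gave 17185 genes, each taken as its brightest set on average. Values were compared as log2 differences, without tests, since each condition had 1 array. The calling rule was tested on simulated data with even noise, smaller than the probe error above, and with changes only in genes well above the floor. It was not tested for genes near the floor, or with noise as large as that error. Named were the 9 genes, up to 6 called genes of each further list, and 3 nearest profiles per called gene. Members, lists and rules were chosen with earlier results of these data known. Alternatives changed the floor, fold, probe sets, centring, quantile normalization, source table and an offset of 50.9. The work was done in Python 3.11.15 with statsmodels 0.14.6, pandas 2.3.3, numpy 2.4.6 and, for plots, matplotlib 3.10.9.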

Additional observations from a re-analysis of the deposited data

Results flagged for a closer look

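Some complement genes had differences from PBS of opposite sign with 2 stimuli while the stimuli themselves were at least 2-fold apart. With 1 array per condition none of these differences was tested, and several of the values against PBS are smaller than 2-fold. CFB was 0.77 log2 below PBS with TNFα and 0.87 above it with IL1β, a difference of -1.64. C3 was 0.95 below PBS with TNFα, 0.34 above with IL1β and 2.17 above with LPS, of which the IL1β value is inside the probe error and gives no direction. The difference was thus -1.29 between TNFα and IL1β and 3.11 between LPS and TNFα. CD55 was 0.55 above PBS with TNFα, 0.68 below with IL1β and 2.97 above with LPS. It differed by 1.23 between TNFα and IL1β and by 3.64 between LPS and IL1β. CD46 was 0.15 below PBS with TNFα and 1.21 above with LPS, a difference of 1.37, of which the TNFα value is inside the probe error and gives no direction.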

How the results depend on the processing

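Loess centring, repeated quantile normalization and the offset left each of the 9 counts (6 of complement genes, 3 of the further list) within 1.5 times its value, as did the mean of all probe sets for the further list. That mean could not move the 9 genes, which have 1 probe set each, and the series table holds the same values, so neither is a sign of stability for them. No single difference of the 9 genes moved by more than the probe error. C1R for LPS against IL1β, which was not called, went from 0.06 to -0.02 with repeated quantile normalization. The floor and the fold moved counts. With a floor at the 75th percentile, C1R was no longer called against PBS, which left 1 complement gene (SERPING1) with TNFα and 1 with IL1β. For TNFα against IL1β, C3 and CD55 were no longer called, which left 1 (CFB). The further list then had 1 with IL1β and 3 with LPS. With a 3-fold rule 1 complement gene was left with TNFα, 1 with IL1β, 3 with LPS against PBS, and 1 for TNFα against IL1β, and 3 of the further list with IL1β. With a 1.5-fold rule there were 4 with IL1β against PBS, 5 for LPS against TNFα and 5 for LPS against IL1β, and 5 of the further list with TNFα. Without a floor the further list had 7 with TNFα and 14 with LPS. Each change follows from how many genes the rule admits. No paired analysis was possible because each condition had 1 array. A floor set without the LPS array, added after seeing the data, left the 3 counts that do not use LPS as they were. Signal over background limits the values below the floor, among them SERPING1 with TNFα, C1R and C1S with PBS, C3 with TNFα, CD55 with IL1β, and CD59 and CFI on all 4 arrays.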

Other observations

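Transcription factors known to act on complement genes, 13 in all, were at the floor on at least 1 array each. For TNFα, IL1β and LPS against PBS, 13, 11 and 12 of them were at the floor. Against PBS 2 were higher with TNFα, 1 with IL1β and 3 with LPS, and 2 were lower with LPS. Among all genes at the floor 3.37%, 3.13% and 8.83% were higher with TNFα, IL1β and LPS, and 3.4%, 3.57% and 7.42% lower. IRF1, which drives interferon-responsive genes, read 147, 1023, 495 and 704 on the PBS, TNFα, IL1β and LPS arrays and was called higher with each stimulus. CEBPD, a C/EBP factor of the acute phase, read 183 with PBS, against 396 with TNFα, 233 with IL1β and 1589.7 with LPS. CEBPB, its relative, read 332, 310, 210 and 1075 in the same order, so LPS was highest for both. RELA, the NF-κB subunit p65, was 2.41-fold lower with LPS than with PBS, and STAT2, a mediator of interferon signalling, was 3.36-fold lower. STAT3, NFKB2 and RELB were not 2-fold different from PBS with any of the 3 stimuli.

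Of 13 receptors for the stimuli, interferons and IL6, 8, 7 and 7 were at the floor for TNFα, IL1β and LPS against PBS. With TNFα 3 were higher and 1 lower, with IL1β 2 higher and 1 lower, and with LPS 2 higher and 2 lower. The same shares of all genes at the floor apply. The interferon-γ receptor chains IFNGR1 and IFNGR2 were higher in each of these comparisons, which share the PBS array. IFNGR1 read 213 with PBS, against 613 with TNFα, 591 with IL1β and 2009 with LPS, and IFNGR2 read 618, 2306, 2692 and 2956 in that order. IL6ST, the shared receptor chain of the IL6 family, was 2.05-fold lower with LPS than with PBS. The remaining called receptors were TLR4 (higher with TNFα) and TNFRSF1B (lower with each stimulus). The TLR4 call rests on 1 of 3 probe sets, which read 82.2 with PBS and 413 with TNFα. Its other sets were near background on all 4 arrays.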
